A study of Mus musculus with 8 samples.

Results

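The genes of the cytosolic ribosomal proteins were followed in naive CD8 T cells from Brca1 heterozygous (Het) and Brca1 wild type (WT) mice. Members were the genes of the deposited table whose symbol is Rpl or Rps with a number, plus Rplp0, Rplp1, Rplp2 and Rpsa, without the Rps6k kinases and without symbols marked as pseudogenes. The rule used names alone, and it found 85 of the 22609 genes listed. Messenger RNA had been sequenced in 8 libraries of naive CD8 T cells, which were taken straight from splenocytes of C57BL/6 mice at 3 months of age. There were 4 Het libraries, named here by their numbers 31, 53, 56 and 139, and 4 WT libraries, numbered 45, 54, 57 and 65. The labels give no treatment, sex, litter or batch, and do not say how the Brca1 allele was made, whether both genotypes came from shared litters, or whether each library is 1 mouse. The p-values therefore measure the spread between these libraries, which may be technical.

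A ribosome is built from a small subunit, which holds the messenger RNA and reads its codons, and a large subunit, which joins amino acids and lets the new chain out through an exit tunnel. The proteins of both subunits, named Rps and Rpl, coat and stabilise ribosomal RNA, and each is needed in about the same number of copies per ribosome. Their mRNAs are short and among the most abundant in a cell, and most begin with a run of pyrimidines, the TOP motif, through which mTOR and Larp1 control their translation. Resting T cells make little protein and enlarge their ribosome pool when they are activated.

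The values are the authors' normalized read counts per gene, on a linear scale. All 8 libraries had been brought to 1 distribution, with totals of 27488636.8 to 27489352.3 in Het and 27489562.8 to 27489670.0 in WT, so a total says nothing of depth. Fewer genes were above 0 in Het (13863 to 14656) than in WT libraries (15358 to 15569), and the lowest value above 0 was higher in Het (0.9 to 1.9) than in WT (0.2 to 0.3). By that lowest value, low values are coarser in Het. The number of distinct values up to 100 overlapped, at 74 to 121 in Het and 106 to 128 in WT. Brca1 itself was at 126.7 to 174.5 in Het and 148.6 to 208.1 in WT libraries, and these ranges overlap. Its log2 difference, Het minus WT, was -0.25 with a limma adjusted p of 0.742, in a table that cannot tell the alleles apart. The CD8 T cell markers averaged 14.45 to 14.57 in Het and 14.36 to 14.52 in WT on the scale of log2(value + 1). In bulk samples, fewer cells of a type and less RNA per cell cannot be told apart.

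No ribosomal protein gene was called different between the genotypes. Of the 85 members, 79 averaged at least 10 across all libraries and were tested with limma on log2(value + 1), with adjustment over all 12048 genes tested. At an adjusted p under 0.05, 0 members were higher in Het, where the share of all genes called was 0.0%, and 0 were lower, where it was 0.515%. The smallest adjusted p of a member was 0.452. At an unadjusted p under 0.05, 7 members were higher in Het and 0 were lower, against 3.79% and 4.4% of all genes. The Het and WT libraries did not overlap in 1 member, which was higher in Het (all genes 2.13%), and in 0 members that were lower (all genes 2.86%).

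Although no member was called, their fitted differences leaned to higher values in Het. The log2 difference was above 0 for 58 of the 79 tested members (73.4%) and for 52.0% of all genes tested, and its median was 0.18 for the members and 0.01 for all genes. Both subunits leaned alike: 35 of 47 large subunit genes were above 0 with a median of 0.18, and 23 of 32 small subunit genes with a median of 0.18. Without Het 31 the median was 0.075, and without Het 31 and Het 139, a choice made after the values were seen, it was 0.02 with 41 of 78 members above 0.

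**Figure D1:**
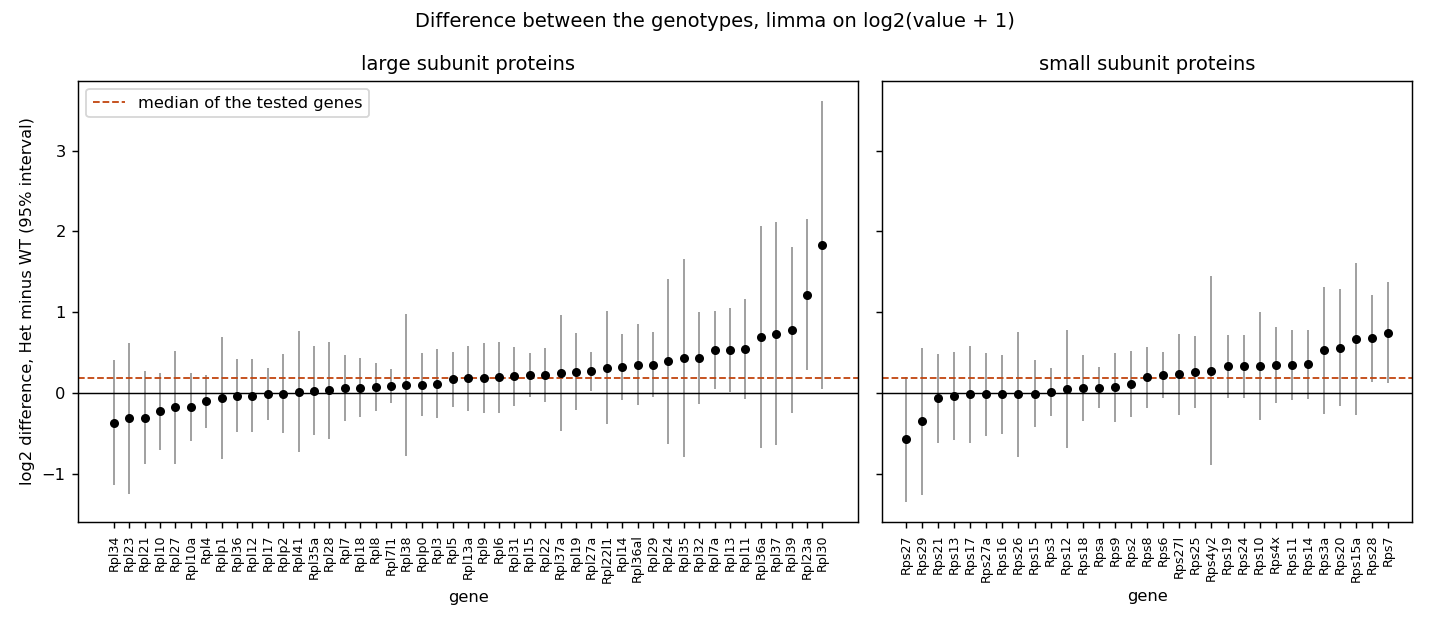
Log2 difference, Het minus WT, of 78 of the 79 tested ribosomal protein genes (points) with the 95% interval of limma (bars), by subunit and sorted by size; the dashed line is the median of all tested genes of the subunit, 0.18 in each panel. Most points lie above 0 and most intervals include 0.

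The lean came unevenly from the Het libraries. Averaged over all 85 members, the level of log2(value + 1) was 10.08, 9.77, 9.61 and 9.84 in Het 31, 53, 56 and 139, against 9.54, 9.54, 9.58 and 9.70 in WT 45, 54, 57 and 65. The means were 9.83 ± 0.194 in Het and 9.59 ± 0.0774 in WT (SD, n = 4 each), and Het 56 lay within the WT range. Het 31 held the highest of the 8 values in 36 members and Het 139 in 23, against 1 to 3 members for any WT library. Het 56 held the lowest value in 21 members and Het 53 in 14, against 9 to 12 for the WT libraries. These counts were not made over all genes, so whether they are particular to the members is not known. The summed value of the members was 3.46%, 2.56%, 2.57% and 3.54% of the total in Het 31, 53, 56 and 139, against 2.71%, 3.06%, 2.90% and 2.54% in WT 45, 54, 57 and 65.

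**Figure D2:**
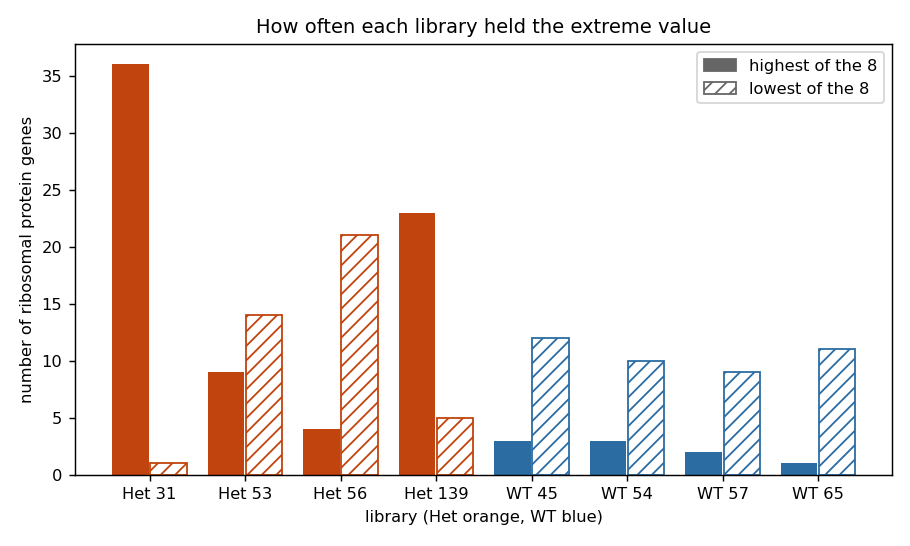
Number of the 79 tested ribosomal protein genes in which each library held the highest (filled) or the lowest (hatched) of the 8 values, Het libraries first. Het 31 and Het 139 held the highest value in 36 and 23 genes; ties count for each library that shares the value. The same counts were not made over all genes.

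Markers of other spleen cells also varied between these libraries. The mean log2 level of 16 B cell markers was 11.06, 9.98, 8.68 and 9.38 in Het 31, 53, 56 and 139, against 8.48, 9.85, 9.17 and 9.61 in WT 45, 54, 57 and 65. All 16 had a difference above 0, 0 were called, and none was listed at 0 in every library. Het 31 was highest for B cell, NK cell, myeloid, platelet and memory or effector T cell markers. It also held the highest value in more ribosomal protein genes than any other library. Het 53 was next for B cell and NK cell markers, yet held the highest value in 9 members and the lowest in 14. Het 139 was highest for the interferon response genes, at 11.41 against 10.65 for the highest WT library. With the B cell level as a covariate the median difference of the members was 0.10, against 0.18 without it. The mean levels of the nerve and glia markers and of the stroma markers parted the genotypes without overlap, though not every single marker did. The mean log2 level of the 12 nerve and glia markers was 2.51 to 5.02 in Het and 7.07 to 8.18 in WT, and that of the 10 stroma markers 5.67 to 6.89 in Het and 7.23 to 8.77 in WT. Of the tested markers, 8 of 11 for nerve and glia and 1 of 10 for stroma (Dcn, a matrix protein) were called lower in Het. The share of all genes called lower in Het was 0.515%. Both lists were chosen with earlier results of these data known, so these counts and the parted means are a description. The difference was below 0 in 10 nerve and glia markers and in 9 stroma markers, and above 0 in Mbp and Pecam1. The part of any of these cells in the ribosomal protein levels was not tested.

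Among large subunit genes the smallest p-values belonged to Rpl23a, Rpl7a, Rpl27a and Rpl30, all with a higher mean in Het. Rpl23a, whose protein sits at the tunnel exit where the signal recognition particle docks, was listed at 19.1, 39.5, 35.7 and 37.1 in Het 31, 53, 56 and 139, against 10, 10.4, 19.2 and 14.4 in WT 45, 54, 57 and 65. Its log2 difference was 1.22 ± 0.42 (SE, n = 4 each) with a limma adjusted p of 0.452, and Het 31 lay just under WT 57 while the other Het libraries were above every WT library. Rpl7a, a large subunit protein, was at 3482.7, 2496.6, 1553.2 and 2186.7 in Het 31, 53, 56 and 139, against 1417.3, 1590.8, 1436.4 and 2108.0 in WT 45, 54, 57 and 65. Its difference was 0.53 ± 0.22 with a limma adjusted p of 0.578, and Het 56 fell between the WT libraries.

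Rpl27a, a protein of the large subunit, had a narrow spread, with values of 1525.3, 1415.4, 1164.9 and 1201.8 in Het 31, 53, 56 and 139, against 1080.1, 1077.2, 1041.6 and 1195.6 in WT 45, 54, 57 and 65. The Het range of 1164.9 to 1525.3 met the WT range of 1041.6 to 1195.6 only at its lower end, and the difference was 0.27 ± 0.11, the smallest in size of the 6 members with the smallest p. Rpl30 was barely detected, at 21.4, 16.6, 11.1 and 19.7 in Het 31, 53, 56 and 139, against 2.4, 0.2, 8.5 and 15.0 in WT 45, 54, 57 and 65. Its fitted difference of 1.83 ± 0.81 had a limma adjusted p of 0.601, and it was 1.11 with a pseudocount of 5 and 1.14 without WT 54.

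In the small subunit the leading genes were Rps28 and Rps7, both of them genes in which mutations cause Diamond-Blackfan anaemia in humans. Rps28 was at 94.2, 108.1, 120.9 and 90.5 in Het 31, 53, 56 and 139, against 63.4, 54.7, 55.3 and 86.8 in WT 45, 54, 57 and 65. Every Het library was above every WT library, and it was the member whose genotypes did not overlap, with a log2 difference of 0.68 ± 0.24, a limma adjusted p of 0.489 and an exact permutation p of 0.0286, the smallest that 4 against 4 libraries allow. Rps7 was at 236.6, 217.8, 156.7 and 169.6 in Het 31, 53, 56 and 139, against 120.2, 68.4, 119.7 and 173.2 in WT 45, 54, 57 and 65. Its Het and WT ranges overlapped through WT 65, and its difference was 0.75 ± 0.28 with a limma adjusted p of 0.510. Rps28 and Rps7 share most of their coding sequence with other annotated genes, as given below.

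The most negative difference was that of Rps27, a zinc finger protein of the small subunit, at -0.57 ± 0.35 with a limma adjusted p of 0.679. It was listed at 97.1, 95, 206.8 and 207.6 in Het 31, 53, 56 and 139, against 274.7, 250.2, 238.6 and 119.4 in WT 45, 54, 57 and 65. Het 31, Het 53 and WT 65 were the low libraries here, across the genotypes. Among members with a negative difference, Rpl21, Rpl34 and Rpl10, a protein that joins the large subunit late in its assembly, had the next smallest p-values, with differences of -0.31, -0.37 and -0.23 and overlapping genotypes in each. Rpl10 ranged from 265.3 to 526.6 in Het and from 401.8 to 496.2 in WT, so that both the highest and the lowest library were Het.

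The most abundant members by value were Rps3, Rpl4 and Rpl8, whose highest library exceeded the lowest 1.24-fold, 1.4-fold and 1.3-fold. All libraries share 1 distribution, so at its top a gene can take only a few values. The values 96009.1 and 90822.7, for example, occur in both Rps3 and Rpl4. Such steps limit what these spreads say of the mRNA. Rps3, a small subunit protein at the entry of the mRNA channel, averaged 95900 ± 8660 in Het and 95100 ± 8970 in WT (SD, n = 4 each), a log2 difference of 0.01 with a 95% interval of -0.28 to 0.31. Rpl4, which lines the exit tunnel, averaged 91100 ± 6730 in Het and 98600 ± 14700 in WT. Its WT 65 value of 76658.5 lay apart from the other WT libraries, at 103259.1 to 107192.9. Rpl8, which lies near the peptidyl transferase centre, averaged 77300 ± 10600 in Het and 73100 ± 5270 in WT. The intervals of all 3 include 0, which does not show that the genotypes are equal. Rpsa, a small subunit protein that also serves as a laminin receptor, averaged 1240 ± 149 in Het and 1190 ± 115 in WT.

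The stalk of the large subunit, on which elongation factors land, is made of Rplp0 and the acidic proteins Rplp1 and Rplp2. Rplp0, the base of the stalk, was at 66283.6, 45142.1, 35871.7 and 57023.4 in Het 31, 53, 56 and 139, against 45142.1, 46876.7, 44517.2 and 49365.6 in WT 45, 54, 57 and 65. The Het libraries surrounded the WT libraries on both sides, with a log2 difference of 0.10 ± 0.18. Rplp1 was at 49365.6, 35871.7, 73524.2 and 107192.9 in Het 31, 53, 56 and 139, against 62217.9, 81746.4, 86367.6 and 37863.2 in WT 45, 54, 57 and 65. Its highest library was Het 139 and its lowest Het 53, and WT 65 was the lowest WT library, with a difference between the genotypes of -0.06 ± 0.34. Rplp2 differed by -0.01 ± 0.22, and again Het 139 was highest and Het 53 lowest. The 3 stalk genes thus did not share an order of libraries, although their proteins share 1 complex.

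Several wide contrasts between libraries crossed the genotypes. In 18 of the 79 tested members, 22.8%, the 3 highest libraries were Het 31, Het 53 and WT 65, and in 8 members, 10.1%, the same libraries were the 3 lowest. Over all genes tested those shares were 8.86% and 7.76%. This grouping and the genes shown for it were chosen after their values were seen, and the labels give no batch, so it is a description of these libraries. WT 65 stood to the other WT libraries as Het 31 and Het 53 stood to the other Het libraries, in sign, in 66 of the members (83.5%, against 69.2% of all genes). Of those 66, 41 were higher and 25 were lower.

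Rpl37 spanned the widest range of these genes, 7.93-fold between its highest and lowest library. It was at 3589.6, 2190.3, 493.2 and 593.8 in Het 31, 53, 56 and 139, against 452.8, 630.5, 595.1 and 1763.5 in WT 45, 54, 57 and 65. Het 31 and Het 53 exceeded the other Het libraries by 2.37 on the log2 scale and WT 65 exceeded the other WT libraries by 1.67, while Het and WT differed by 0.73 ± 0.62 with a limma adjusted p of 0.756. Rpl39, a small protein inside the exit tunnel, was at 7719.9, 5146.4, 1858.8 and 2488.0 in Het 31, 53, 56 and 139, against 1841.1, 1567.7, 1543.2 and 4796.8 in WT 45, 54, 57 and 65. Its 2 within-genotype differences were 1.55 and 1.54 on the log2 scale.

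Rps15a, in the small subunit, was at 18143.4, 11894.6, 4077.9 and 6587.1 in Het 31, 53, 56 and 139, against 4240.9, 5162.5, 4105.7 and 10135.6 in WT 45, 54, 57 and 65. Rpl35, at the tunnel exit, showed the same order at much lower values, with 160.4, 175.6, 54.1 and 42.5 in Het 31, 53, 56 and 139, against 41.5, 57.9, 48.6 and 166.0 in WT 45, 54, 57 and 65. In both genes the 3 high libraries were well clear of the other 5, whatever the genotype. The other members with this order were Rpl11, Rpl13, Rpl22l1, Rpl29, Rpl36al, Rpl37a, Rps10, Rps12, Rps13, Rps20, Rps27l, Rps3a, Rps4x and Rps7. Rpl11 is among the proteins that bind Mdm2 and so activate p53 when ribosome assembly fails.

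The opposite order was that of Rpl23 and 7 more members. Rpl23, another Mdm2-binding protein, was at 7528.3, 5973.6, 16866.7 and 20514.6 in Het 31, 53, 56 and 139, against 18954.6, 18143.4, 15820.1 and 6841.5 in WT 45, 54, 57 and 65. Het 31 and Het 53 were lower than the other Het libraries by a log2 difference of -1.47, and WT 65 was lower than the other WT libraries by -1.36. Rps26, which lies at the exit of the mRNA channel, was at 11866.8, 7981.2, 15670.8 and 24151.2 in Het 31, 53, 56 and 139, against 14075.2, 20945.4, 16465.6 and 7735.6 in WT 45, 54, 57 and 65. Rplp1, Rps27 and Rpl41, a peptide of the large subunit and the shortest member, had the same order with within-genotype differences between -1.10 and -0.97 in Het and between -1.08 and -1.01 in WT. Rpl28, Rpl36 and Rpl4 completed the 8.

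**Figure D3:**
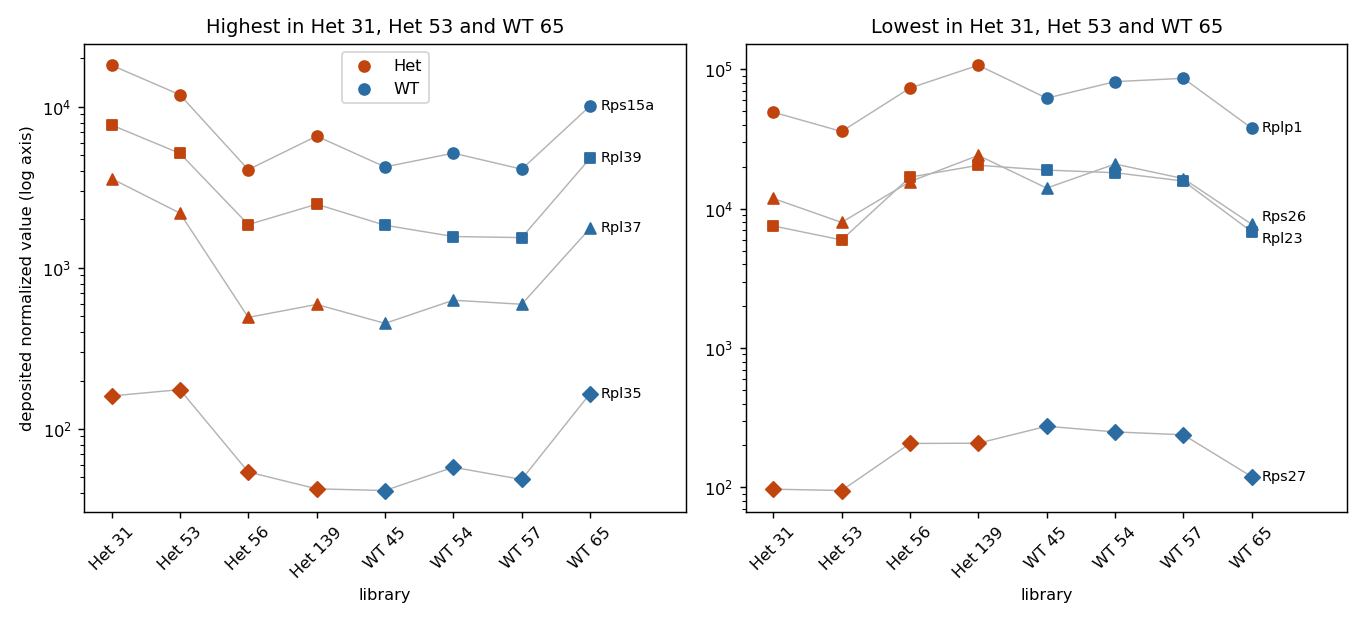
Deposited normalized value (log axis) of 4 genes highest (left) and 4 genes lowest (right) in Het 31, Het 53 and WT 65, by library, with Het in orange and WT in blue. Rpl37 was at 3589.6 in Het 31 and 493.2 in Het 56, against 1763.5 in WT 65 and 452.8 in WT 45; lines join the values of 1 gene and imply no order of libraries.

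The sequence features of these sets are given as a description. Median GC content of the coding sequence was 50.1% for the 18, 53.4% for the 8 and 52.6% for the 53 members in neither order. Median coding length was 396, 346.5 and 480 bases in the same sets, with wide ranges. The median log2 difference between Het and WT was 0.39 in the 18, -0.05 in the 8 and 0.11 in the rest. Of the 3 libraries that are high together in the 18, 2 are Het, so part of that difference follows from the order that defines the set. With a term for Het 31, Het 53 and WT 65 in the model, chosen after the values were seen, the median over all tested members was 0.14. Among the other 5 libraries alone it was 0.12, with 55 of 78 members above 0.

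**Figure D4:**
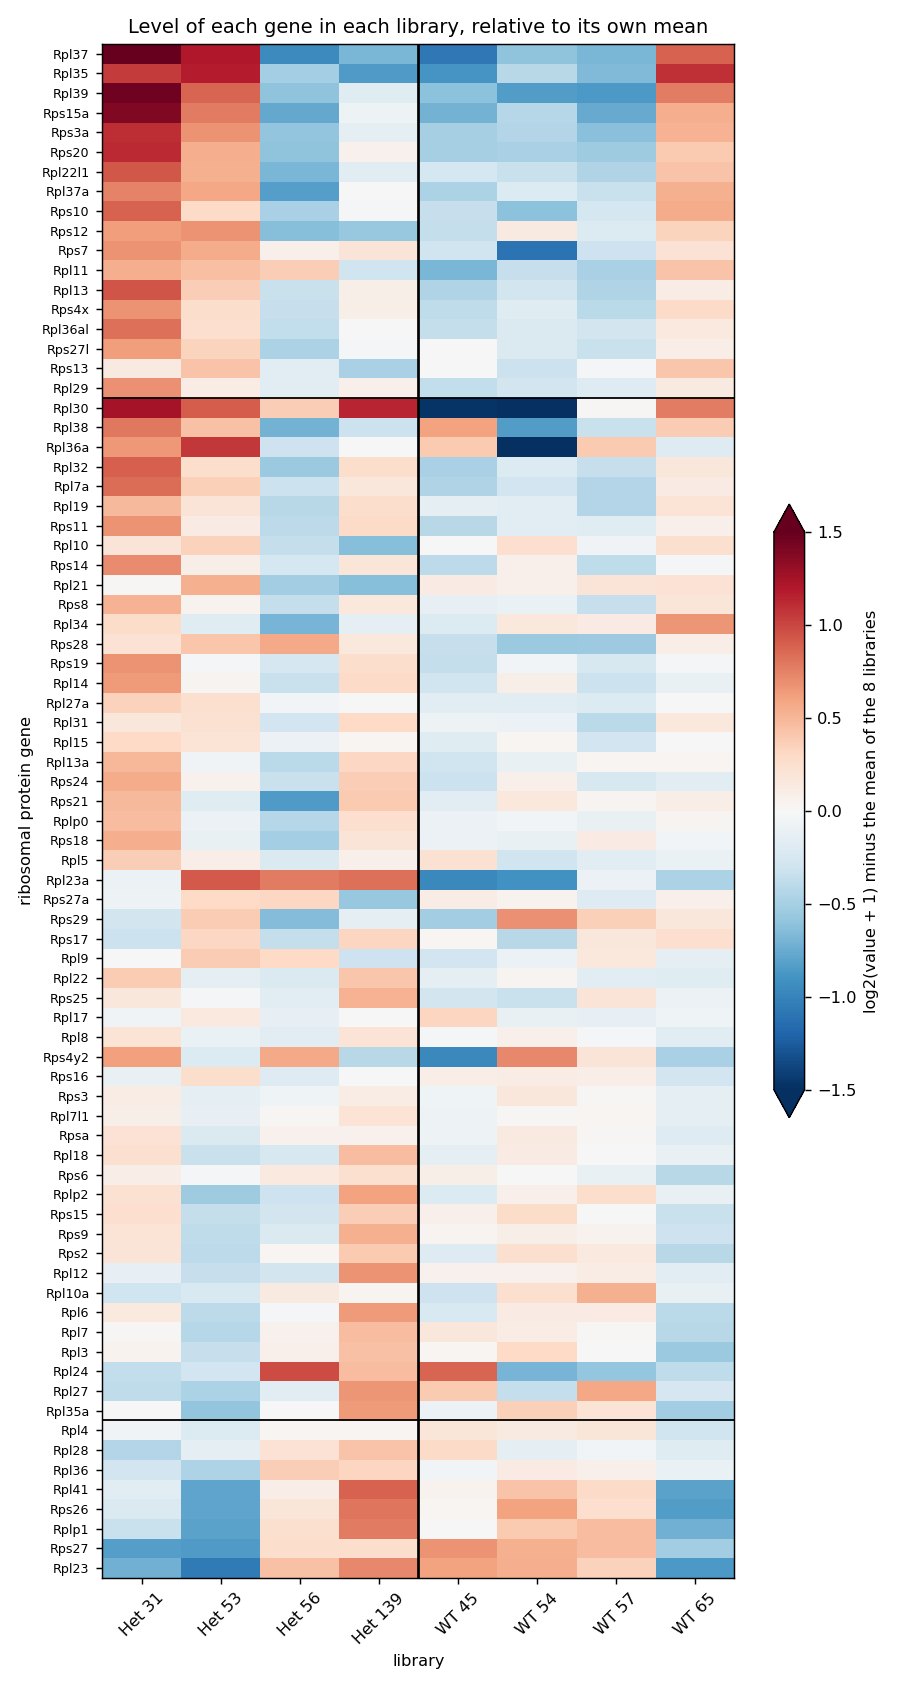
Level of 78 of the 79 tested ribosomal protein genes in each library, as log2(value + 1) minus the gene's mean over the 8 libraries (red above, blue below; colours end at 1.5). The upper block holds the 18 genes highest in Het 31, Het 53 and WT 65, the lower block the 8 genes lowest there, and the vertical line parts the Het from the WT libraries.

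Starts of these genes were read from the RefSeq table of promoters (GRCm38.p6), which held 64 of the 85 members and 27025 genes in all. The deposited values were made on mm9, so these coordinates serve the sequences alone. A run of at least 8 pyrimidines (C or T) on the sense strand within 25 bases of the start was present in 30 of the 64 member promoters, 46.9%, and in 19.4% of all promoters. The hexamer CTTTCC on the sense strand within 10 bases of the start was found in 12.5% of members and 0.84% of all promoters, and CCTTTT in 1.56% and 0.49%; such matches can lie inside a pyrimidine run. In the windows of 300 bases, CCGGAAGT, searched on both strands, was found in 18.8% of members and 4.0% of all, AAGATGGC on both strands in 7.81% and 2.88%, GGGCGG on both strands in 60.9% and 35.9%, and TATAAA on the sense strand in 9.38% and 8.88%. These are matches of letters and not sites. The stretches from 30 bases before to 25 after the annotated start follow for genes of each order, with Rpl35, Rps15a and Rpl39 high and Rps26 and Rps27 low in Het 31, Het 53 and WT 65, and Rpl7a in neither. Capitals mark the longest run of C and T within 25 bases of the start.
Rpl35 (chr2:39005107-39005161, minus strand): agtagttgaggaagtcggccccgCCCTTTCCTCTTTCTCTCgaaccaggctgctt
Rps15a (chr7:118116123-118116177, minus strand): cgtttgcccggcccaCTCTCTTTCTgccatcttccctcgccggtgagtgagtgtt
Rpl39 (chrX:37085198-37085252, minus strand): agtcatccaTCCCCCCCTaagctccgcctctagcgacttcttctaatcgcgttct
Rps26 (chr10:128626482-128626536, minus strand): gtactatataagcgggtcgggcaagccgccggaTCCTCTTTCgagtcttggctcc
Rps27 (chr3:90213624-90213678, minus strand): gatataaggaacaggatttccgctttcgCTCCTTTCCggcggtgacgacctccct
Rpl7a (chr2:26910777-26910831, plus strand): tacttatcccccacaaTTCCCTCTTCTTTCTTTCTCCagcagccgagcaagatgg
Pyrimidine runs stood near the start in genes of both orders, with 18 letters in Rpl35, 10 in Rps15a and 9 in Rps26 and in Rps27. Other genes had shorter runs, with 6 letters in Rpl37 and 4 in Rps4x of the high order. In the low order Rpl23 had 6 and Rpl41 had 3. The median over the member promoters was 7, so the stretches shown have longer runs than most.

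The listed levels of the members ran over several orders of magnitude, although ribosomes need their proteins in like numbers. Many ribosomal protein genes have processed copies elsewhere in the genome, with nearly the same letters. The coding sequence of each member was therefore cut into words of 50 bases, and each word was looked for in all other annotated transcripts of GENCODE M21 (GRCm38). Rpl7a shared words with 120 other genes and Rps3 with 1. The same positions of the 2 coding sequences, bases 420 to 469, are shown because they differ in it, with 43 other genes holding the Rpl7a stretch and 0 the Rps3 stretch.
Rpl7a: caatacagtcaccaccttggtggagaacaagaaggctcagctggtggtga
Rps3: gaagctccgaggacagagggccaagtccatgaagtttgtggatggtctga

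Members with more unique words were listed at higher levels. The mean value per kb of coding sequence had a median of 509 in the 29 members with no unique word, 7860 in the 39 with some but under 50% unique, and 32700 in the 15 with at least 50% unique, limits chosen after the values were seen. These 83 leave out Rpl26, which was listed at 0, and Rps4y2, for which no transcript was matched. Spearman's rho between the share of unique words and the level per kb was 0.52 over these 83 members, and 0.72 over 76 once 7 paralogues named after another member were left out. With Rpl26 kept in, the middle class held 40 members with a median of 7320 per kb, and rho was 0.50 over 84 members. The points share their libraries and the coding lengths, so rho is a description. Rps3, with 92.0% unique words, was listed at 130482 per kb, and Rpl7a, with 6.65%, at 2539 per kb. The share was also read for the other members with the smallest p-values. Of those higher in Het, it was 0% in Rps28, Rpl23a and Rpl27a, 4.66% in Rps7 and 16.7% in Rpl30. Of those lower in Het, it was 0% in Rps27, Rpl21 and Rpl10 and 28.5% in Rpl34. Few unique words were thus common on both sides, as among the members at large. Rpl41 and Rpl13a were exceptions to the rise of level with unique words, at 123557 and 61206 per kb with 0% and 2.49%. Rplp1, with 39.2%, was the highest member at 193532 per kb. How the authors' counting treated reads that match several genes is not given in the sources used here, and its part in these levels was not tested.

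**Figure D5:**
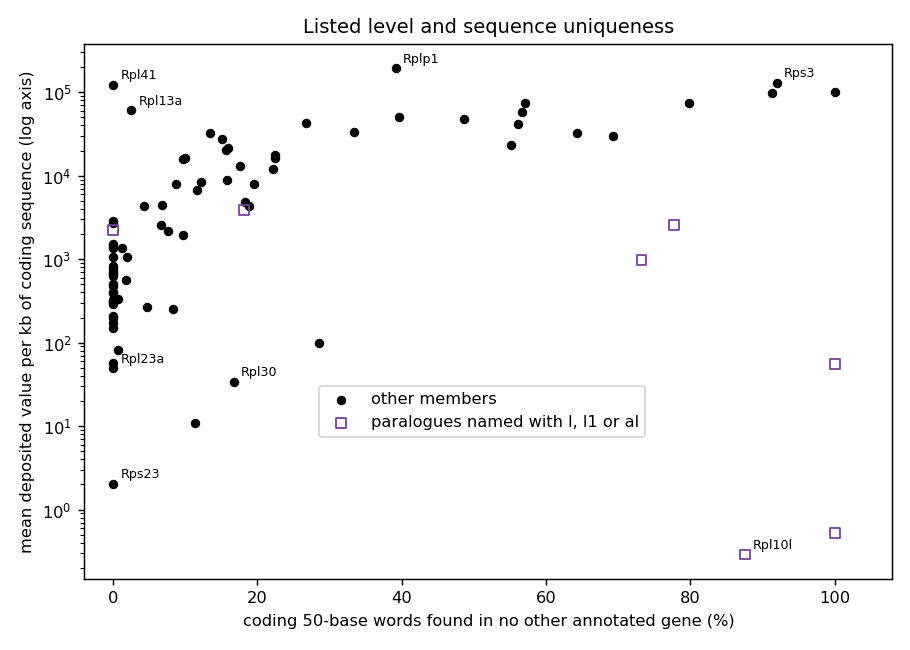
Mean deposited value per kb of coding sequence (log axis) against the share of 50-base words of the coding sequence found in no other annotated gene, for 83 ribosomal protein genes. Squares are 7 paralogues named after another member; among the other 76, Spearman's rho was 0.72.

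Of the 6 members under the filter, 5 are described here. Rpl26 was listed at 0 in all 8 libraries, and Rps23 at 0.0 to 4.4 in Het and 0.0 to 0.8 in WT. Both encode core proteins of the ribosome, and the words of their coding sequences were 12.6% and 0% unique. A value near 0 for such a gene is a listing and gives no level of its mRNA. Rpl3l, Rpl10l and Rpl39l are paralogues used mainly in striated muscle (Rpl3l) or testis (Rpl10l, Rpl39l), with 87.6% to 100% unique words. Rpl3l was at 0.0 to 3.2 in Het and 0.0 to 0.3 in WT, Rpl10l at 0.0 in each Het library and 0.0 to 1.1 in WT, and Rpl39l at 4.8 to 21.7 in Het and 0.3 to 14.4 in WT.

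The paralogue pairs that both passed the filter were compared by level per library and by difference. Rpl22, which mouse alpha-beta T cells need for their development, was at 14832.1, 10328.9, 9843.6 and 15186.0 in Het 31, 53, 56 and 139, against 10358.2, 11689.3, 10225.1 and 10026.0 in WT 45, 54, 57 and 65. Rpl22l1, its close paralogue, was at 2531.7, 1922.7, 827.4 and 1191.9 in Het 31, 53, 56 and 139, against 1105.6, 1052.6, 968.7 and 1789.4 in WT 45, 54, 57 and 65. The differences between the genotypes were 0.22 ± 0.15 for Rpl22 and 0.31 ± 0.32 for Rpl22l1, and Rpl22l1 alone of this pair had the order of Het 31, Het 53 and WT 65. Rps27 and its p53-responsive paralogue Rps27l ran in opposite orders across those libraries. Rps27l averaged 345 ± 109 in Het and 285 ± 38.3 in WT, with a log2 difference of 0.23 ± 0.23 where that of Rps27 was -0.57 ± 0.35. Whether the 2 differences differ was not tested. Rpl36al differed by 0.35 ± 0.23 and Rpl36a, at 12.4 to 33.8 in Het and 3.2 to 20.9 in WT, by 0.70 ± 0.62. Rpl7 and Rpl7l1 differed by 0.06 ± 0.18 and 0.09 ± 0.10, and Rpl3 by 0.11 ± 0.19. Rps4y2, among the 3 members with the lowest mean that passed the filter, was at 10.4 to 22.3 in Het and 6.8 to 24.1 in WT.

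Genes that work with the ribosome were followed as lists beside the members. Of 3 ribosomal proteins outside the naming rule, Gnb2l1, the scaffold Rack1 on the small subunit, averaged 97200 ± 15000 in Het and 89700 ± 12700 in WT, and 0 of the 3 were called. Of 19 other mRNAs with a TOP motif, 0 were called in either direction and 15 had a difference above 0, with a median of 0.09. Eif3e, a subunit of initiation factor eIF3, differed by 0.33 ± 0.15 and Btf3, a chaperone subunit at the tunnel exit, by 0.22 ± 0.10, with limma adjusted p-values of 0.601 and 0.635. Het 31 was highest for Eif3e and Het 139 for Btf3.

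In 12 host genes of small nucleolar RNAs 1 was called, Snhg11, lower in Het with a limma adjusted p of 0.0344. It was at 0.9, 0.0, 5.5 and 0.0 in Het 31, 53, 56 and 139, against 21.7, 50.6, 31.4 and 41.4 in WT 45, 54, 57 and 65. The genotypes did not overlap (all genes 2.86% in that direction). The mean level of the nerve and glia markers, a list chosen with earlier results known, was lower in the same Het libraries, as given above. The part of such cells in the Snhg11 values was not tested. Gas5, a host gene whose own transcript has a TOP motif, differed by 0.01 ± 0.13 and was named after the values were seen.

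The 6 remaining lists of genes that make, run or regulate ribosomes held 0 called genes. The difference was above 0 for 17 of 29 initiation factors (median 0.04), 7 of 11 elongation and termination factors (median 0.05), 30 of 67 ribosome biogenesis factors (median -0.03) and 3 of 11 ribosomal protein chaperones (median -0.04). Riok2, a kinase that finishes the small subunit, averaged 1180 ± 70.7 in Het and 1020 ± 32.6 in WT, and Heatr3, which helps carry Rpl5 into the nucleus in humans, averaged 1490 ± 82.7 in Het and 1310 ± 63.0 in WT. Both had no overlap of the genotypes, with every Het library higher, as was so for 2.13% of all genes. Their limma adjusted p-values were 0.609 and 0.608, and they were named for the smallest p of their lists. Of 27 regulators of mTOR and of TOP mRNAs, 22 had a difference below 0 (median -0.10), and of 14 genes of ribosome stress and p53 signalling, 7 did (median -0.02). Mxd4, a partner of Max that opposes Myc, differed by -0.36 ± 0.19 and Cnbp, which binds TOP mRNAs, by 0.26 ± 0.14, with limma adjusted p-values of 0.652 and 0.653. Larp1, which binds the TOP motif, and Myc, which drives ribosome production, are named for their roles after the values were seen, and differed by -0.03 ± 0.09 and -0.06 ± 0.15.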

How the data were processed

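Libraries were made from polyadenylated RNA with a stranded kit, per the labels' protocols. The authors deposited values that the name of their table calls normalized read counts, here treated as a signal that is linear and not whole-numbered, in 1 table for the 8 libraries. The submitters' processing notes name CASAVA, TopHat2, HTSeq, DESeq and the build mm9 but give neither their versions nor what each did. Sorted from high to low, the libraries' deposited signal values agreed to within 2% at 100% of the 9513 ranks whose mean reached 100, so they had been quantile normalized. That step sets all totals alike and hides any difference in total mRNA between libraries; the members' share of the total can still differ. Depth is therefore known only through how many genes were detected and how coarse the low values are, and no count model or counting interval was used.

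The test was limma 3.58.1 (R 4.3.3) with its mean-variance trend, fitted to log2(value + 1) as Het minus WT, 2-sided, for genes whose mean reached 10, with Benjamini-Hochberg adjustment over 12048 genes and a threshold of 0.05. This scale understates differences of low genes. Error values beside a log2 difference are limma's standard errors with n = 4 each. Single values were tested with an exact 2-sided permutation over 70 assignments, whose smallest p is 0.0286. The code was tested on simulated data. Symbols were matched to RefSeq and GENCODE by name; coding sequence came from the longest consensus coding transcript, and words were matched exactly on the same strand. Levels per kb divide the mean value by coding length, while the authors' counting covered genes in a way not given in the sources used here.

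Named members were, by rule, the 6 higher and 4 lower in Het with the smallest p, the 3 with the highest and the 3 with the lowest mean, the stalk proteins, Rpsa and 7 paralogue pairs, and in each pathway list the 2 genes with the smallest p; a few genes are not reported here by name. The members, lists and rules were chosen with earlier results of these data known. Alternatives changed the pseudocount, filter, scaling, variance model, weights, covariate and libraries.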

Additional observations from a re-analysis of the deposited data

Results flagged for a closer look

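A screen of the named members and of the members' mean level, 61 groups of 4 libraries of 1 genotype in all, for 1 library far from the other 3 (Dixon's test at 95%, which chance passes in about 1 of 20 groups) marked 3 groups, 4.92%. Each concerned WT 65. Rpl4 was at 76658.5 in WT 65 and at 103259.1 to 107192.9 in the other WT libraries. Rpl22l1 was at 1789.4 in WT 65 and at 968.7 to 1105.6 in the other WT libraries. Rpl39 was at 4796.8 in WT 65 and at 1543.2 to 1841.1 in the other WT libraries. In all 3 genes WT 65 stood on the same side as Het 31 and Het 53.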

How the results depend on the processing

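In 23 alternatives to the settings used, 0 ribosomal protein genes passed the threshold in either direction. The number of members above 0 was 51 to 64 with 1 library left out and 41 to 67 otherwise, and their median log2 difference 0.075 to 0.26 and 0.016 to 0.23. Without Het 31 and Het 139 the large subunit median was -0.0065. No paired analysis was possible because the labels give no litter or batch by which to pair the libraries. The lowest value above 0 was higher in Het, and 4 libraries a genotype limit what can be called.

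Counts of all genes called varied more. Higher in Het, there were 9 with any value above 0, 10 without a trend, 1 with array weights and 0 to 3 with 1 library left out. Lower in Het, there were 114 with any value above 0, 14 at a mean of at least 50, 40 with the B cell covariate and 11 to 88 with 1 library left out. With choices made after the values were seen, there were 22 with a term for Het 31, Het 53 and WT 65, 3 without Het 31 and Het 139, 0 among Het 31, Het 53 and WT 65, and 3 among the other 5.

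Of 614 log2 differences of named members under the alternatives, 44 in 16 members had the other sign, none past the threshold; the cause was not tested. Rps3 was at -0.0367 with TMM factors; with array weights Rps3 and Rpl7 were at -0.0092 and -0.0076. With the B cell covariate, Rps3, Rplp0 and Rplp1 were at -0.0182, -0.0251 and 0.0863. With 1 library left out, the differences ran from -0.032 to 0.0719 for Rps3, -0.0554 to 0.25 for Rpl3, -0.0848 to 0.21 for Rpl7, -0.039 to 0.26 for Rplp0, -0.33 to 0.19 for Rplp1, -0.21 to 0.17 for Rplp2 and -0.0022 to 0.56 for Rps4y2. With the term for the 3 libraries, Rplp1 and Rplp2 were at 0.20 and 0.0512. Without Het 31 and Het 139, Rps3, Rpl8, Rplp0 and Rpsa were at -0.0979, -0.0988, -0.21 and -0.0406, and Rpl22, Rpl3, Rpl7 and Rpl7l1 at -0.066, -0.0764, -0.15 and -0.0088. Among Het 31, Het 53 and WT 65, Rpl21, Rpl10, Rpl4 and Rplp1 were at 0.0535, 0.0329, 0.17 and 0.15. Among the other 5, Rps3, Rplp0, Rplp1, Rplp2, Rpl22l1 and Rps27l were at -0.0138, -0.0087, 0.22, 0.10, -0.0676 and -0.0674.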
